A study of Mus musculus with 3 samples.

Results

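A set of 10 genes of the amino-acid and endoplasmic reticulum (ER) stress responses, Atf4, Ddit3, Trib3, Asns, Chac1, Sesn2, Hspa5, Xbp1, Herpud1 and Nupr1, was followed in mouse muscle macrophages by taking the gene rows, by symbol, from a single-cell count table of 13242 genes. All 10 genes were found in the table. The cells came from quadriceps muscle 1 week after volumetric muscle loss, a surgical removal of muscle tissue, and the wound had received urinary bladder matrix (UBM, a decellularised tissue scaffold), polycaprolactone (PCL, a synthetic polyester) or saline. Sorted macrophages of each treatment gave 1 droplet library, with 2280 UBM cells, 1753 PCL cells and 341 saline cells. The sources used here do not say which strain or age of mouse was used, or how many mice went into a library. The authors assigned the pooled cells to 9 clusters named RP1 to RP3, R1 to R3, FP1, F1 and F2. RP1, against which the other clusters of the UBM library are set, held 574 UBM cells, 37 PCL cells and 13 saline cells.

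The ER stress and amino-acid stress pathways meet at a common step. Kinases that sense uncharged tRNA, unfolded protein in the ER, viral RNA or lack of haem phosphorylate the translation factor eIF2alpha, which slows translation in general but favours translation of ATF4, and ATF4 with C/EBP partners then drives genes for amino-acid uptake, amino-acid synthesis and tRNA charging. Unfolded protein in the ER also acts through 2 further sensors, ATF6 and IRE1, the second of which splices the Xbp1 transcript, and these raise chaperones and factors of ER-associated degradation. In macrophages, IRE1 and XBP1 are known to support cytokine production after Toll-like receptor signals.

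Promoter stretches with the known recognition elements of ATF4 and of the ER sensors are shown first, since the genes are described below by these arms. RefSeq promoter windows of build GRCm38.p6, running from 250 bases before to 50 bases after the annotated start, were matched for all 10 genes and searched on both strands for the C/EBP-ATF element TGATGNAA, the ER stress element (CCAAT, then 9 bases of any kind, then CCACG), the ER stress element II (ATTGG, then 1 base, then CCACG) and the XBP1 element TGACGTGG. Each line gives 1 match, 5′ to 3′ on the gene's strand, with the matched letters in capitals.
Trib3, chr2:152344028-152344057, minus strand: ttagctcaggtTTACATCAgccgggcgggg
Asns, chr6:7693214-7693243, minus strand: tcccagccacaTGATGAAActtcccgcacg
Chac1, chr2:119351008-119351097, plus strand: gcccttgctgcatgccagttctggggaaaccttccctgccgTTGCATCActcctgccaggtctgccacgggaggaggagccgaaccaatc
Nupr1, chr7:126625562-126625591, minus strand: aaagggccagaTTGCATCAgacagggcttg
Herpud1, chr8:94386276-94386365, plus strand: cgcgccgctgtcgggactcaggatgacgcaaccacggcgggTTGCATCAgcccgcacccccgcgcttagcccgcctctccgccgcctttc
Herpud1, chr8:94386337-94386426, plus strand: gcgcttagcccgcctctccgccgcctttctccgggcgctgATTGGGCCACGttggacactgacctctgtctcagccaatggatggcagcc
Hspa5, chr2:34772019-34772048, plus strand: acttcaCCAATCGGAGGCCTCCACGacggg
The first 5 lines hold the C/EBP-ATF element, which in Asns reads on the gene's strand and in the other genes on the opposite strand. It began 15 bases after the start in Trib3, and at positions -23 in Asns, -193 in Chac1, -110 in Nupr1 and -112 in Herpud1. These positions count from the RefSeq start of each window. Against the outermost start of each gene in the GENCODE annotation, the Trib3 match lies before the start and the Asns, Nupr1 and Hspa5 matches after it, while those of Chac1 and Herpud1 lie before both starts. The last 2 lines hold the ER stress element II of Herpud1, from -52 to -42, and the ER stress element of Hspa5, from -65 to -47. The C/EBP-ATF letters were in 3.97% of 32851 promoter windows, the ER stress element in 0.119%, the ER stress element II in 0.0365% and the XBP1 element in 0.676%. No match was found in the windows of Atf4, Ddit3, Sesn2 and Xbp1, which says only that these letters are not there. A match is a description of the sequence, not evidence of binding.

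Levels are sums of unique molecular identifiers (UMIs, each counting 1 captured transcript) over the cells of a group, per 1000000 UMIs of that group (CPM). Libraries held 14586276 UMIs (UBM), 11006118 (PCL) and 1888343 (saline), and median depth per cell was 5476.5, 5662 and 4594 UMIs. With 1 library per condition there is no replicate and no test. The 95% intervals are exact Poisson intervals for levels, exact conditional binomial intervals for ratios and Clopper-Pearson intervals for shares of cells, and they cover counting error only. The RP1 cluster was made from these same genes, so RP1 values describe the cluster. All 12 macrophage markers listed for the label check were detected in every cluster-by-library group of at least 20 cells, with summed levels from 8236 to 49611 CPM. The lowest sum was that of RP1 in the UBM library, 8236 CPM against 20324 CPM in the other UBM clusters. Lyz2, the complement genes C1qa, C1qb and C1qc, and Cd68, Fcgr1 and Mertk stood at least 1.5-fold lower in RP1 with 10 CPM added. The other markers, Mrc1, Cd14, Itgam, Csf1r and Adgre1, did not. The macrophage receptor Adgre1 (F4/80) was at 419 CPM in RP1 and 432 CPM in the others. T and NK cell markers summed to 0.37 CPM in UBM RP1, muscle fibre markers to 5.61 CPM and neutrophil markers to 77.8 CPM. The saline RP1 cells are not compared below, because 11 of the 13 had over 10% mitochondrial UMIs, with a median of 42.7%. A count of 6 barcodes occurred in more than 1 library.

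Within the UBM library, genes of the amino-acid arm stood higher in RP1 than in the other clusters, and the ER chaperone gene Hspa5 stood lower. Trib3 was at 73.3 CPM in RP1 and 3.95 CPM in the other clusters, an 18.6-fold ratio, while Hspa5 was at 216 CPM in RP1 and 514 CPM in the others. A gene was called higher or lower when it differed at least 1.5-fold after 10 CPM had been added to both groups, provided that the higher group reached 10 CPM. Of the 10 genes, 9 passed the minimum, 6 were called higher (Atf4, Ddit3, Trib3, Asns, Sesn2 and Nupr1) and 1 lower (Hspa5). Over all 7045 genes that passed, 5.42% were called higher and 9.33% lower. Trib3, Asns and Sesn2 passed the minimum only through RP1, so a difference for these 3 followed from the filter itself. The median log2 ratio with 10 CPM added was 1.03 over the 10 genes and -0.04 over all genes passing the minimum.

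**Figure D1:**
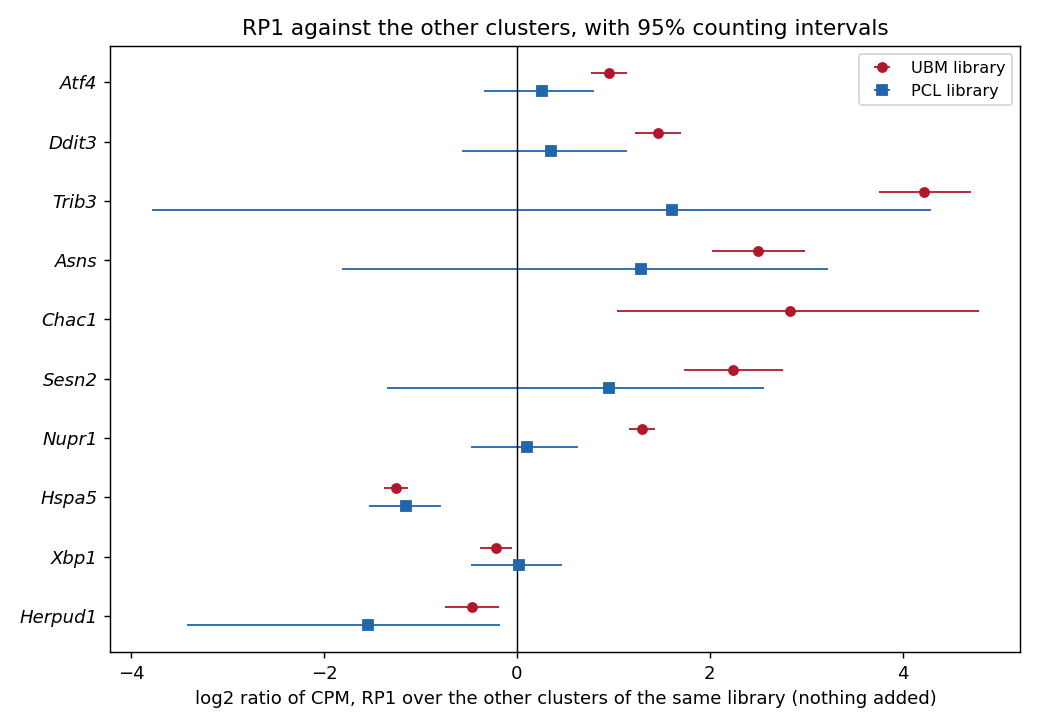
Ratio of CPM in RP1 over the other clusters of the same library, on a log2 axis with no pseudocount and 95% counting intervals, for the UBM and PCL libraries. In the UBM library Trib3 stood 18.6-fold higher and Hspa5 0.42 times as high in RP1, and in the PCL library the 37 RP1 cells gave wide intervals except for the abundant genes (Chac1 had no UMI in PCL and is not drawn).

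Of the regulators, Atf4, which encodes the transcription factor at the centre of the response, was at 127 CPM in RP1 (340 UMIs, interval 114 to 141) and at 65.6 CPM in the other UBM clusters, a ratio of 1.94 (1.70 to 2.20). Across the other 7 UBM clusters of at least 20 cells it ran from 47.3 CPM in R3 to 86.9 CPM in F1, and only the interval of F1, with 43 cells, overlapped that of RP1. Ddit3 encodes CHOP, a C/EBP-family factor induced downstream of ATF4. It was at 88.3 CPM in RP1 and 32.1 CPM in the other clusters, a ratio of 2.75 (2.33 to 3.25). The other 7 clusters lay between 21.7 CPM in F1 and 37.1 CPM in RP3, and none of their intervals reached that of RP1, 77.4 to 100.3 CPM. Ddit3 overlaps Mars, a tRNA synthetase gene on the opposite strand, and Mars had 29 UMIs in RP1 and 115 in the other clusters.

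Trib3, a pseudokinase induced by ATF4 and CHOP that feeds back on both, had the widest ratio of the 9 genes that passed the minimum. RP1 held 196 of the 243 Trib3 UMIs of the UBM library, or 80.7% (75.1 to 85.4), while it held 18.3% of all UMIs and 25.2% of the cells. The ratio was 18.6 (13.5 to 26.1). By log2 ratio with 10 CPM added Trib3 ranked 4 among 7045 genes, a set it entered only through its level in RP1. RP2 was next, at 7.73 CPM (5.22 to 11), followed by R1 at 4.54 CPM and FP1 at 3.78 CPM. R2 had 0.92 CPM and R3 0.73 CPM. No Trib3 UMI was found in the 200 RP3 cells, which at this depth allows a share of cells with a UMI, though not of cells expressing the gene, of up to 1.5%, nor in the 43 F1 cells. RP1 and RP3 cells had similar depth, with medians of 4249.5 and 4193.5 UMIs. The 196 UMIs were spread over 141 RP1 cells, and no cell held more than 5.

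The amino-acid target genes had the same high cluster. Asns encodes asparagine synthetase, and it was at 31.4 CPM in RP1 (84 UMIs) and 5.54 CPM in the other clusters, a ratio of 5.67 (4.06 to 7.96). RP2, at 9.53 CPM, and FP1, at 10.1 CPM, lay below the RP1 interval of 25.1 to 38.9 CPM, and F1, with 3 UMIs, overlapped it. RP3 again had no Asns UMI. Sesn2, a leucine-binding protein that restrains mTORC1 when leucine is short, was at 25.4 CPM in RP1 (68 UMIs) and 5.37 CPM in the others, a ratio of 4.74 (3.32 to 6.77). Its other clusters ran from 2.52 CPM in FP1 to 8.50 CPM in RP2, and the interval of F1, with 2 UMIs, overlapped that of RP1. Sesn2 shares its strand and part of its span with Gm12981, which had 3 UMIs in RP1 and 6 in the other clusters. Chac1, which breaks down glutathione, was near the limit of detection, with 8 UMIs in RP1 and 5 in all the other UBM clusters. Its levels of 2.99 CPM in RP1 and 0.42 CPM in the others gave a ratio of 7.13 (2.06 to 27.7), and it did not pass the minimum.

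Nupr1 encodes a small nuclear stress protein that ATF4 induces. It was at 252 CPM in RP1 (674 UMIs) and 103 CPM in the other clusters, a ratio of 2.46 (2.23 to 2.70). The next clusters were R2 at 166 CPM (149 to 184) and RP3 at 159 CPM (135 to 186), whose intervals overlapped each other but not that of RP1, and the lowest was R3 at 43.0 CPM. R2 and RP3, which had 2 and 0 Trib3 UMIs, thus came next for Nupr1.

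The genes of the ER arm had other orders of clusters. Hspa5 encodes BiP, the main ER chaperone, and was lowest in RP1, at 216 CPM (199 to 234), and next lowest in RP2, at 277 CPM (261 to 294). The remaining clusters lay between 465 CPM in FP1 and 567 CPM in RP3, except for R2 at 924 CPM (884 to 965), which stood above all the others. The ratio of RP1 to the other clusters was 0.42 (0.39 to 0.46), placing Hspa5 at rank 116 from the lowest of 7045 genes. Xbp1, whose transcript IRE1 splices into the form for an active factor, was at 137 CPM in RP1 and 159 CPM in the others, a ratio of 0.86 (0.77 to 0.96) that was not called. It was highest in F1, at 268 CPM, and R2, at 228 CPM, with overlapping intervals, and the counts per gene do not separate spliced from unspliced forms. Herpud1, a scaffold of ER-associated degradation that both arms induce, was at 46.8 CPM in RP1 and 64.4 CPM in the others, a ratio of 0.73 (0.60 to 0.88) that was not called. It was highest in RP3, at 143 CPM (120 to 169), then in R2, at 98.9 CPM, and lowest in RP2 and FP1, at 28.9 and 29.0 CPM. So R2 was high for Hspa5, Xbp1, Herpud1 and Nupr1, while RP1 was highest for the 6 genes called higher and for Chac1.

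**Figure D2:**
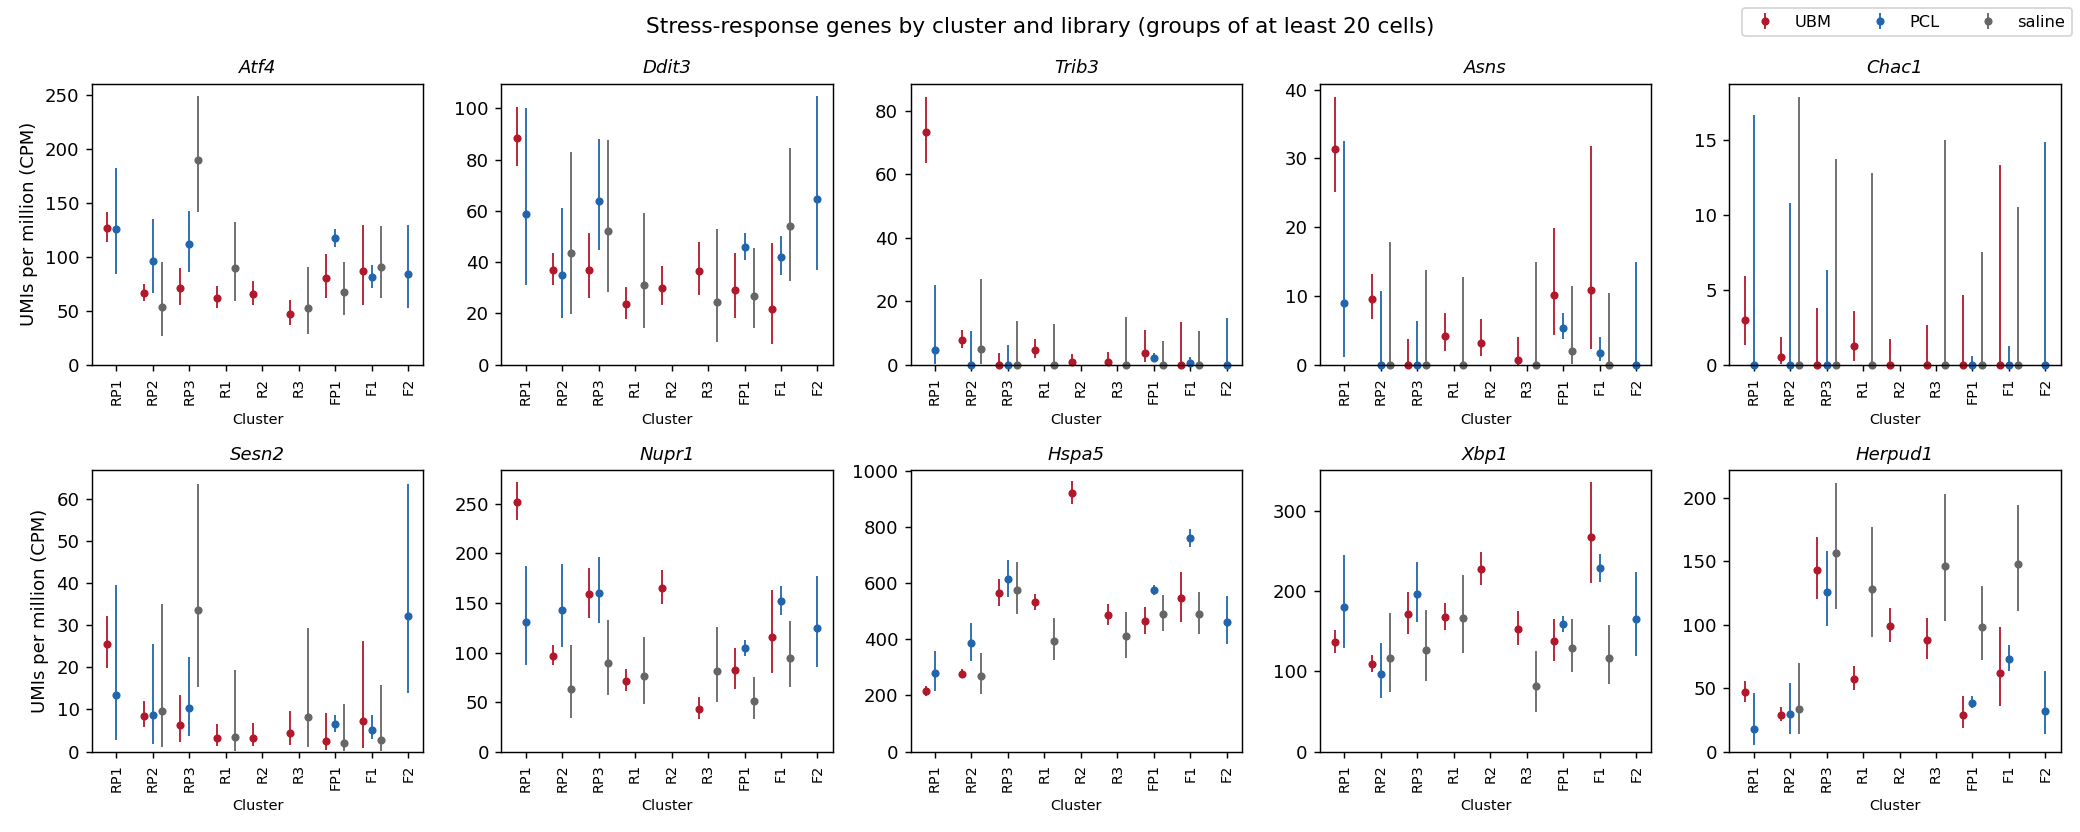
Level of each gene in CPM (vertical axis, from 0, scaled per gene) in each cluster (horizontal axis) and library (colour), for groups of at least 20 cells, with exact 95% Poisson intervals. UBM RP1 stands apart for Trib3 at 73.3 CPM, while Hspa5 is lowest there at 216 CPM and highest in UBM R2 at 924 CPM.

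The same counts were also taken as shares of cells. After every cell had been thinned to 2500 UMIs, leaving out 395 shallower cells of all libraries, 15.4% of RP1 cells of the UBM library had a Trib3 UMI (77 of 500, 12.3 to 18.9). The share was 2.62% in RP2 (16 of 611) and between 0 and 1.44% in the other UBM clusters. Before thinning the shares were 24.6% in RP1, 4.22% in RP2 and 0% in RP3. For Ddit3 the thinned share was 18.0% in RP1 and between 2.38% and 8.24% in the other clusters. At least 2 of Trib3, Asns, Sesn2, Ddit3 and Chac1 were found in 8% of thinned RP1 cells (40 of 500, 5.78 to 10.7), against 1.31% in RP2 (8 of 611) and at most 0.72% elsewhere in the UBM library. Each of these genes was highest in RP1, so a higher joint share there follows from the single shares. Whether they met in the same cells more often than that was not tested. Within RP1, Ddit3 was found in 28.6% of the 77 thinned cells with Trib3 (18.8 to 40.0) and in 16.1% of the 423 without (12.7 to 19.9). Asns was found in 6.49% of the cells with Trib3 and 5.67% of those without. The intervals with and without Trib3 overlapped for Ddit3, for Asns and for each of the other genes. Hspa5 was found in 36.4% of thinned RP1 cells, 43.0% of RP2 cells and 79.3% of R2 cells.

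The rest of the pathway was described with lists of related genes. The list counts stand beside 5.42% of all 7045 genes called higher and 9.33% called lower. Genes beyond the 2 highest and 2 lowest of each list were named after their values had been seen. Of 7 other transcription factors of the stress response, 6 passed the minimum, 4 were called higher in RP1 and 1 lower. Atf5, a close relative of Atf4 that is itself regulated by translation, was at 177 CPM in RP1 and 23.3 CPM in the other UBM clusters (7.60-fold, 6.54 to 8.84). Cebpg, a dimer partner of ATF4, was 1.91-fold higher, Crebrf 1.98-fold and Cebpb 1.71-fold, while Cebpa was lower at 0.59 times and Atf3 was not called at 0.87 times. The list median was 0.75, beside -0.04 for all genes.

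Of 7 amino-acid transporter genes in the table, 5 passed and 3 were called higher in RP1. Slc7a1, which carries cationic amino acids, stood at 2.77-fold, Slc38a2, of neutral amino acids, at 2.31-fold, and Slc3a2, the heavy chain that several transporters share, at 1.81-fold. Slc7a1, at 9.07 CPM in the other clusters, passed the minimum only through RP1. Slc1a5 was at 6.74 CPM in RP1 and 10.9 CPM in the others and was not called. Among 12 genes of serine, one-carbon and proline synthesis, 8 passed, 3 were called higher and 1 lower. The mitochondrial folate enzyme genes Mthfd2 (96.9 against 30.6 CPM) and Mthfd1l (38.5 against 12.9 CPM) and the first enzyme gene of serine synthesis, Phgdh (18.7 against 4.11 CPM), were higher in RP1, while Psat1, of the next step of that route, was lower (6.36 against 14.7 CPM). Phgdh passed the minimum only through RP1 and Psat1 only through the other clusters, so their differences followed from the filter itself. Of 20 cytosolic tRNA synthetase genes, all passed and 2 were called higher, Sars at 2.06-fold and Eprs at 2.04-fold. None was called lower, and the lowest were Kars at 0.65 times (0.47 to 0.87) and Farsa at 0.55 times (0.36 to 0.80). The list median was 0.18. Over all genes that passed, 5.42% were called higher and 9.33% lower. Among 13 other ATF4 and CHOP targets, 9 passed and 4 were called higher, Ero1l (8.26-fold), Gdf15 (3.66-fold), Eif4ebp1 (2.24-fold) and Ddit4 (1.86-fold), with Sesn1 lowest at 0.58 times and not called.

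Of 12 genes for the sensors and phosphatases of eIF2alpha, 10 passed, beside shares over all genes of 5.42% higher and 9.33% lower. Ppp1r15a, the inducible subunit that directs dephosphorylation of eIF2alpha, was called higher at 118 CPM in RP1 and 60.3 CPM in the others. Ern1, which encodes IRE1, was called higher at 26.9 CPM against 11.6 CPM, and Dnajc3, an ER co-chaperone, was called lower at 64.7 CPM against 106 CPM. The kinase genes Eif2ak3 (PERK) and Eif2ak4 (GCN2) did not pass, at 6.74 against 8.39 CPM and 5.61 against 4.70 CPM.

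Of the ER lists, the chaperones stood lower in RP1. Of 17 chaperone and disulfide isomerase genes, all passed, 9 were called lower in RP1 and none higher, with a median of -0.64 (Dnajc3 is among them). Sdf2l1, of the ER chaperone complex, was at 52.8 CPM in RP1 and 261 CPM in the other clusters (0.20 times, 0.17 to 0.24). The calcium-binding chaperone gene Calr was at 177 against 575 CPM (0.31 times), while Dnajc10 and P4hb were not called, at 1.20-fold and 1.13-fold. Of 15 genes of ER-associated degradation, 14 passed and none was called. Derl1 was highest at 1.4-fold, and Edem2 and Vcp were lowest at 0.63 and 0.67 times. Of 19 genes of ER translocation and of the secretory route that XBP1 regulates, all passed, 1 was called higher (Krtcap2, 1.86-fold) and 3 lower (Ssr2, Sec61b and Spcs3, from 0.57 to 0.63 times). The median was 0.02 for the degradation list and -0.14 for the translocation list, beside -0.04 over all genes, where 5.42% were higher and 9.33% lower.

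**Figure D3:**
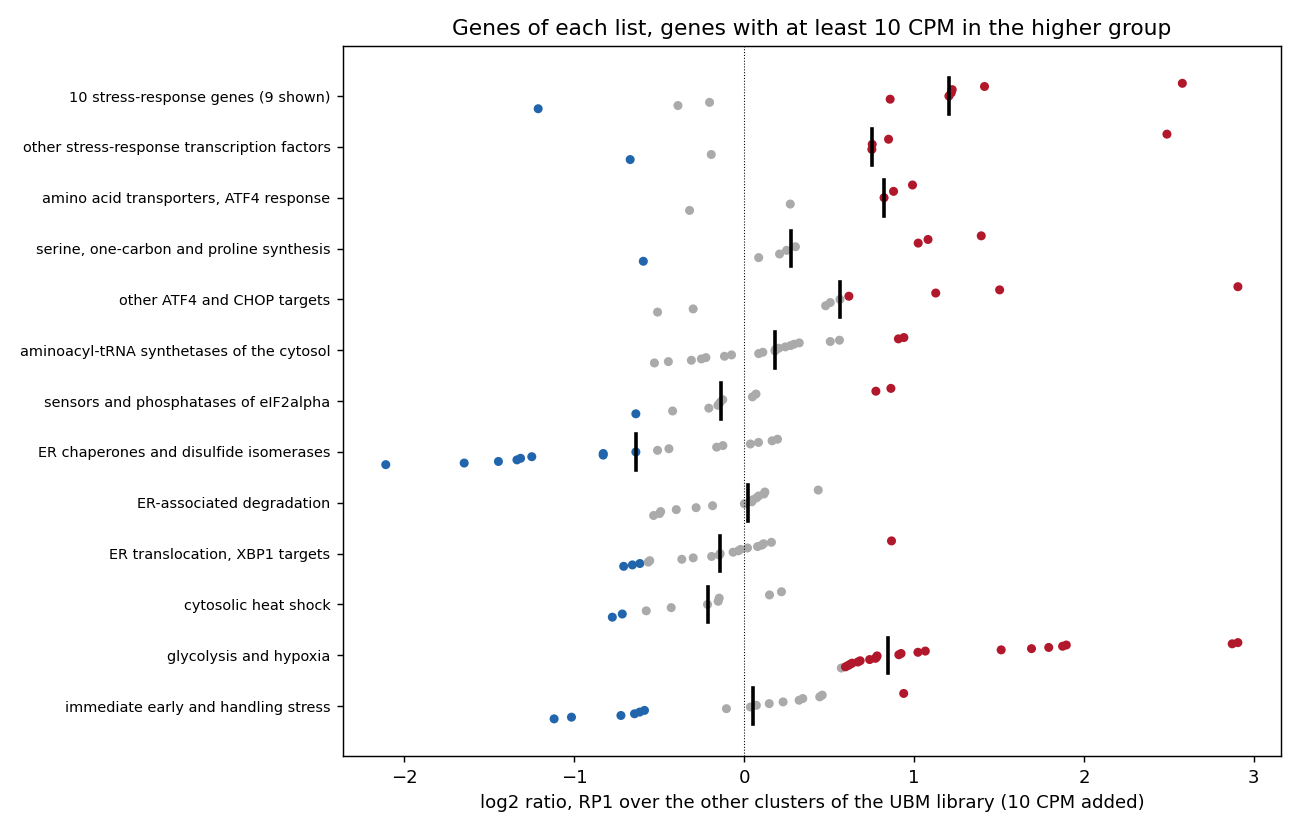
Log2 ratio with 10 CPM added (horizontal axis) for the genes of each list that passed the minimum, RP1 over the other clusters of the UBM library. Each point is 1 gene, red for called higher, blue for called lower and grey for not called, and the bars mark medians, 0.75 for the other transcription factors, -0.64 for the ER chaperones and 0.85 for glycolysis and hypoxia.

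Other measures differed in RP1 beside these genes. Of 23 glycolysis and hypoxia genes, 22 passed, 21 were called higher and none lower, with a median of 0.85, and Ero1l is on this list too. Adm, which encodes the peptide adrenomedullin, was at 117 CPM in RP1 and 7.30 CPM in the others, and passed the minimum only through RP1. Gapdh was at 1.49-fold and Car9 did not pass. The summed level of this list was 14758 CPM in UBM RP1, and between 3399 and 10201 CPM in the other UBM clusters. Of 9 cytosolic heat shock genes that passed, 2 were lower (Dnaja1 and Hspa8) and none higher, with Hspa1a at 1.24-fold and Hsph1 at 1.13-fold. Of 16 immediate early and handling genes, 1 was higher (Klf4, 1.95-fold) and 6 lower, with Ier3 at 1.38-fold and Ier2 lowest at 0.44 times. The shares over all genes were 5.42% higher and 9.33% lower. RP1 cells had 24.6% of UMIs in ribosomal protein genes and other UBM clusters 14.1% to 21.0%, and a median of 1.07% mitochondrial UMIs against 2.21% to 4.15%. The part of these differences in the levels of the stress-response genes was not tested.

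The 37 RP1 cells of the PCL library had a different set of values, with 221722 UMIs and a limit of 13.5 CPM from a count of 0. Against the other PCL clusters, 7 of the 10 genes passed, none was called higher and 2 were called lower, where 8.75% of 7357 genes were higher and 15.7% lower. Hspa5 was at 280 CPM in PCL RP1 and 621 CPM in the other PCL clusters, a ratio of 0.45 (0.35 to 0.58), and Herpud1 at 18.0 against 52.5 CPM, a ratio of 0.34 (0.09 to 0.88) from 4 UMIs. Trib3 had 1 UMI in PCL RP1, Asns 2, Sesn2 3 and Chac1 0. The intervals of their ratios, 0.07 to 19.6 for Trib3 and 0.28 to 9.38 for Asns, include both 1 and the ratios of 18.6 and 5.67 found in the UBM library. After thinning, Asns and Sesn2 were called higher in PCL RP1 on these few counts. Atf4 was at 126 CPM in PCL RP1 and 106 CPM in the other PCL clusters, and Nupr1 at 131 against 121 CPM.

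Atf5 had 1 UMI in PCL RP1 and was at 4.51 CPM, under the limit of 13.5 CPM, against 6.95 CPM in the other PCL clusters, so its ratio had a wide interval, 0.016 to 3.73. Other listed genes had more UMIs. Slc3a2 was at 275 against 293 CPM (0.94 times, 0.72 to 1.21). Gdf15, a secreted stress cytokine, was at 76.7 against 10.2 CPM (7.52-fold, 4.23 to 12.6), and Ero1l at 226 against 82.9 CPM (2.72-fold). Of the 6 other transcription factors that passed, none was higher and 1 lower, and of 19 tRNA synthetase genes, none was higher and 7 lower. Of 21 glycolysis and hypoxia genes that passed, 12 were called higher and none lower, with a median of 0.81. The chaperone list had 6 of 17 genes lower and none higher. In this comparison 8.75% of all genes were called higher and 15.7% lower. The difference between the libraries in these contrasts was not tested.

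The direct comparison of UBM with PCL cells within RP1 was chosen after the values had been seen. Trib3 was at 73.3 CPM in UBM RP1 and 4.51 CPM in PCL RP1, a ratio of 16.3 (2.88 to 646). Nupr1 was at 252 against 131 CPM, a ratio of 1.93 (1.33 to 2.90), and Atf4 at 127 against 126 CPM, a ratio of 1.01 (0.68 to 1.54). In UBM RP1, 5 genes were called higher (Trib3, Asns, Sesn2, Herpud1 and Nupr1) and none lower, where 13.9% of 7231 genes were higher and 20.9% lower. Trib3 and Asns passed the minimum only through UBM RP1. For Asns, Sesn2 and Herpud1 the interval of the ratio included 1, and thinning turned the log2 ratio of Sesn2 to -0.58.

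Over all cells, the UBM library differed from saline in 4 of the 8 genes that passed, of which Trib3 and Asns passed only through UBM. Trib3 was at 16.7 CPM in UBM (243 UMIs) and 0.53 CPM in saline (1 UMI), a ratio of 31.5 (5.59 to 1248). Asns was at 10.3 against 0.53 CPM, also with 1 saline UMI, a ratio of 19.4 (3.43 to 772). Nupr1 was at 130 against 73.1 CPM, a ratio of 1.78 (1.5 to 2.13). Herpud1 was lower, at 61.2 CPM in UBM and 121 CPM in saline, a ratio of 0.51 (0.44 to 0.59). Among 7296 genes, 5.36% were called higher and 10.2% lower. Atf4 (76.9 against 89.5 CPM), Ddit3 (42.4 against 40.2 CPM), Hspa5 (459 against 451 CPM) and Xbp1 (155 against 124 CPM) were not called. The share of RP1 cells was 25.2% in the UBM library. Without RP1 cells no gene was called higher and Herpud1 was still called lower, with Nupr1 at 103 against 73.7 CPM. Trib3 was then at 3.95 against 0.54 CPM and Asns at 5.54 CPM in UBM. These 2 genes were under the 10 CPM minimum in both libraries, so they could not be called at any ratio. With the shared clusters weighted equally, Nupr1 was called higher, Atf4 and Sesn2 lower, and Trib3, Asns and Herpud1 were not called.

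The PCL library differed from saline in Nupr1 and Herpud1 among the 6 genes that passed. Nupr1 was at 122 CPM in PCL and 73.1 CPM in saline, a ratio of 1.66 (1.4 to 2), and Herpud1 at 51.8 against 121 CPM, a ratio of 0.43 (0.37 to 0.50). Among 7389 genes, 6.73% were higher and 6.78% lower. Hspa5 was at 614 against 451 CPM (1.36-fold) and Xbp1 at 178 against 124 CPM (1.44-fold), and neither was called. These 2 comparisons share the saline library of 341 cells.

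The UBM library differed from PCL in Trib3 alone among the 8 genes that passed, and it passed only through UBM. Trib3 was at 16.7 CPM in UBM and 1.54 CPM in PCL, a ratio of 10.8 (6.60 to 18.8), and 5.44% of 7200 genes were called higher and 10.6% lower. Asns was at 10.3 against 3.82 CPM (2.69-fold, 1.90 to 3.89) and was not called with 10 CPM added, though it was under both other scalings, with totals free of ribosomal protein genes, with cells counted alike, with 1 CPM added and after thinning. Without RP1 cells Trib3 was at 3.95 CPM in UBM and 1.48 CPM in PCL. Both levels were under the 10 CPM minimum, so Trib3 could not be called at any ratio. Atf4 was lower in UBM, at 76.9 against 106 CPM (0.73 times), and Hspa5 at 459 against 614 CPM (0.75 times), and neither was called.

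**Figure D4:**
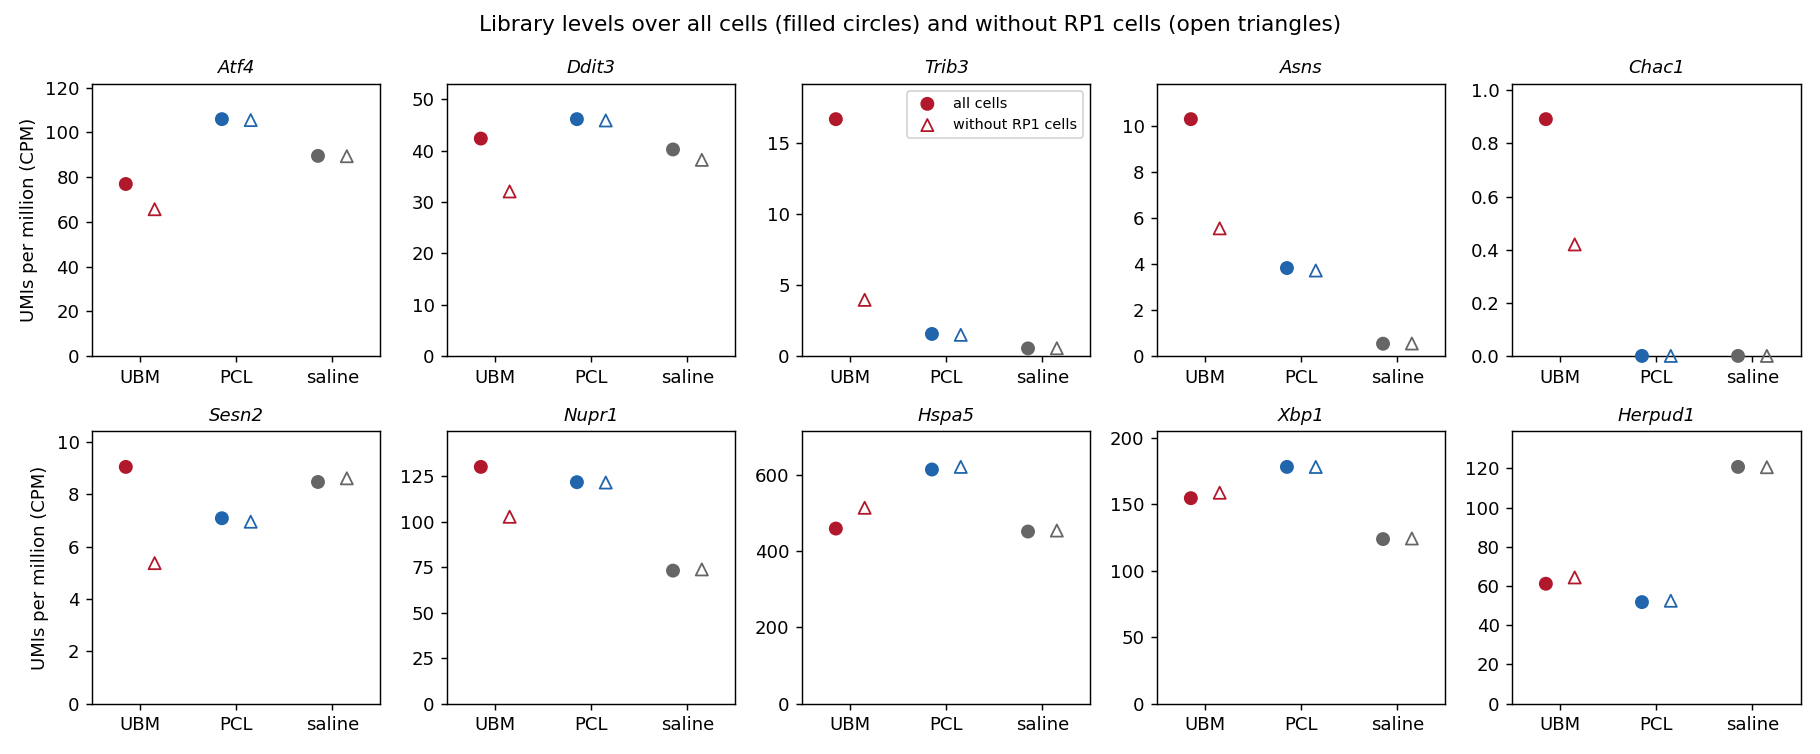
Level of each gene in CPM (vertical axis, from 0, scaled per gene) in the UBM, PCL and saline libraries, over all cells (filled circles) and without RP1 cells (open triangles), with 1 library per condition. Trib3 in the UBM library is at 16.7 CPM over all cells and 3.95 CPM without RP1 cells, and Herpud1 is highest in saline, at 121 CPM.

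Libraries were also compared inside single clusters, wherever both had 50 cells or more. Shares in brackets are of all genes that passed the minimum in the same comparison. For UBM against saline this held in FP1, where 7 of the 10 genes passed, 2 were called higher and 1 lower (11.7% and 14.2%). It also held in RP3, where 7 passed, with 1 higher and 2 lower (12% and 21.3%). For PCL against saline it held in F1, FP1 and RP3. In F1, 6 genes passed, with 3 higher and 1 lower (15.7% and 10.2%). In FP1, 6 passed, also with 3 higher and 1 lower (9.52% and 7.39%). In RP3, 7 passed, with 2 higher and 2 lower (18.7% and 14.6%). For UBM against PCL, none of the 7 genes that passed in FP1 was called (7.91% higher and 11.5% lower). The same was true of the 6 that passed in RP2 (10.4% and 14%). In RP3, 7 passed, none was higher and 2 were lower (5.52% and 17.3%).

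Herpud1 was lower than in saline in FP1 and F1 and was not called in RP3. In FP1 it was at 29.0 CPM in UBM cells, 38.6 CPM in PCL cells and 98.3 CPM in saline cells. In F1 it was at 73.3 CPM in PCL and 148 CPM in saline. In RP3 it was at 143 CPM in UBM, 126 CPM in PCL and 156 CPM in saline.

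Nupr1 was called higher than in saline in each of the 5 comparisons with saline. It was at 81.9 CPM in UBM, 104 CPM in PCL and 51.2 CPM in saline in FP1, at 159, 160 and 89.3 CPM in RP3, and at 152 CPM in PCL and 94.0 CPM in saline in F1. Its interval included 1 in 1 comparison, UBM against saline in FP1 (1.60, 0.995 to 2.65).

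Atf4 differed from saline in opposite ways in 2 clusters. In RP3 it was at 71.1 CPM in UBM, 112 CPM in PCL and 190 CPM in saline, called lower in both comparisons. Sesn2 in RP3 was at 6.18, 10.3 and 33.5 CPM, from 6, 6 and 9 UMIs, and was also called lower in both. Against UBM it passed the minimum only through saline. In FP1 Atf4 was at 80.7 CPM in UBM, 117 CPM in PCL and 67.6 CPM in saline, called higher in PCL. Ddit3 in FP1 was at 46.0 CPM in PCL and 26.6 CPM in saline, and was called higher with an interval of the ratio from 0.995 to 3.28. Asns, at 10.1 CPM in UBM FP1 and 2.05 CPM in saline FP1, was called higher on 8 UMIs and 1 UMI, and passed the minimum only through UBM.

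The ER genes differed within F1 and RP3. In F1, Hspa5 was at 762 CPM in PCL and 490 CPM in saline, a ratio of 1.56 (1.33 to 1.83), and Xbp1 at 229 against 117 CPM, a ratio of 1.96 (1.43 to 2.76), both called higher. In RP3, Xbp1 was at 196 CPM in PCL and 127 CPM in saline, called higher, and at 171 CPM in UBM, not called. The 2 genes lower in UBM than in PCL cells of RP3 were Atf4, at 71.1 against 112 CPM, and Ddit3, at 37.1 against 63.8 CPM.

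The genes most like each of the 10 across groups were taken as the 3 highest Pearson correlations of log2(CPM + 10), over 14 cluster-by-library groups of at least 50 cells and 3933 genes with at least 50 CPM in some group. Groups of 1 library share depth and processing, so the values are descriptions. For Trib3 they were Adm (0.96), Cox6a2 (0.92) and Atf5 (0.91), for Asns Atf5 (0.93), Krtcap2 (0.92) and Ero1l (0.92), and for Chac1 Adm (0.87), Eif1 (0.87) and Pcbp2 (0.86). Without the UBM RP1 group, Trib3 and Adm stood at 0.67 and Asns and Atf5 at 0.80. Chac1 then stood at 0.24 with Adm, 0.57 with Eif1 and 0.69 with Pcbp2. It had only 13 UMIs in UBM and 0 in PCL and saline. For Hspa5 they were Pdia3 (0.91), Hsp90b1 (0.91) and Dnaja1 (0.87), all chaperone or folding genes. For Atf4 they were Csgalnact2 (0.87), Nufip2 (0.87) and Mcl1 (0.86), for Ddit3 Nars (0.85), Phf21a (0.84) and Stat6 (0.82), and for Sesn2 Mef2d (0.90), Kcmf1 (0.85) and Elf2 (0.85). For Xbp1 they were Cklf (0.83), Gstp1 (0.82) and Vimp (0.80), for Herpud1 Serinc3 (0.90), Cyp27a1 (0.89) and Scarb2 (0.88), and for Nupr1 Gda (0.85), Tlr4 (0.82) and Rbms1 (0.81). Among the 10 genes themselves, Trib3 and Asns stood at 0.93 and at 0.88 without UBM RP1, Hspa5 and Xbp1 at 0.71 and 0.85, and Atf4 and Trib3 at 0.21 and -0.31.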

How the data were processed

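Per the labels' protocols, sorted macrophages were run on the 10x Chromium platform with 3′ version 2 chemistry. The deposited values are raw UMI counts per gene and cell, made by the authors with Cell Ranger and clustered with Seurat version 2, per the submitters' processing notes, which name build hg38 although the symbols are mouse ones. How cells and genes were filtered is not stated in the labels, and no doublet caller was run. Clusters and conditions come from the deposited cell annotation, where the condition names were matched to the UBM, PCL and saline samples by meaning. The 10 genes and the lists were chosen with earlier results of these data known.

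Counts were summed per group and scaled to 1000000 UMIs, with Python 3.11.15, numpy 2.4.6, scipy 1.17.1 and pandas 2.3.3. Calls used a pseudocount of 10 CPM, a minimum of 10 CPM and 1.5-fold, were checked on simulated data, and come without p-values. The simulated counts were Poisson, at the size of the UBM RP1 comparison, with changes larger than 1.5-fold in genes above the minimum. Changes near 1.5-fold, levels near the minimum and smaller groups were not checked. Shares of cells were taken as deposited and thinned to 2500 UMIs. A count of 0 was given a limit of 3 counts. Named genes are the 10 genes, the 3 most alike genes of each and the 2 highest and 2 lowest of each list. Alternatives were 2 other scalings (edgeR 4.0.16 under R 4.3.3 for the trimmed mean of M values), totals without ribosomal protein genes, equal weights of cells or clusters, a pseudocount of 1 CPM, no minimum, 2-fold, thinning, and leaving out RP1 cells or cells over 10% mitochondrial UMIs. Equal weights of clusters used only clusters with at least 50 cells in each library compared, which left RP1 out of the comparisons between libraries. Promoter windows are RefSeq's.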

Additional observations from a re-analysis of the deposited data

Results flagged for a closer look

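Atf4 in PCL cells against saline cells went in opposite directions in 2 clusters. The log2 ratio with 10 CPM added was 0.71 in FP1, at 117 CPM in PCL and 67.6 CPM in saline (764 and 33 UMIs), and -0.71 in RP3, at 112 CPM in PCL and 190 CPM in saline (65 and 51 UMIs). The difference between the clusters was not tested, since each condition has 1 library. The saline RP3 cells also had the highest summed level of the immediate early and handling genes, 28529 CPM, against 12216 CPM in PCL RP3, and its part in the Atf4 level was not tested.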

How the results depend on the processing

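No paired analysis was possible because each condition has 1 library, and leaving out a replicate could not be run for the same reason. In RP1 against the other UBM clusters, all 10 genes kept their direction under every setting run, and the same 6 genes were called higher except that Atf4 was not at 2-fold, with log2 ratios from 2.29 to 3.91 for Trib3 and from -1.29 to -1.08 for Hspa5, and 2 genes, Hspa5 and Herpud1, were lower after thinning. In UBM against saline, 1 gene was higher at 2-fold and with clusters weighted equally and 0 without RP1 cells, while 0 were lower at 2-fold and 2 with equal weights. In PCL against saline, 0 were higher at 2-fold, and 2 after thinning or with equal weights. In UBM against PCL, 2 were higher with the trimmed mean of M values, median of ratios, totals without ribosomal protein genes and Malat1, cells counted alike, a pseudocount of 1 CPM or thinning, 0 with equal weights of clusters, and without RP1 cells 0 were higher and 1 lower. Without RP1 cells or with equal weights of clusters, Trib3 and Asns were under the minimum in both UBM comparisons over all cells and could not be called. In PCL RP1 (settings added after the data were seen), 1 was higher with a pseudocount of 1 CPM and 2 after thinning. Summed over clusters, UBM against saline gave 0 higher at 2-fold and 5 lower after thinning, and PCL against saline 0 higher and 2 lower at 2-fold. UBM against PCL summed over clusters gave 0 higher and 2 lower as reported. There, 1 was higher with the trimmed mean or a pseudocount of 1 CPM, 2 with totals without ribosomal genes, cells counted alike or no minimum, and 4 after thinning, and 0 were lower with either scaling or at 2-fold, 1 without ribosomal genes or high-mitochondrial cells, 4 with a pseudocount of 1 CPM and 5 after thinning. The log2 ratio of Sesn2 for UBM against PCL in RP1 became -0.58 after thinning. Of 1368 values, 1271 stayed within their counting interval, 96 moved by more and 1 changed sign, and the causes were not tested. They are single-gene log2 ratios, with the counts of called genes for UBM against PCL in RP1, which were held to 1.5-fold instead. A change of sign was looked for only in genes called in the main setting. The settings of 2-fold and no minimum leave a log2 ratio as it is. Other scalings moved the median of all genes by 0.11 in UBM against saline and by up to 0.21 within RP3.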

Other observations

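The PCL cluster F2, with 45 cells, had the highest levels of Ddit3 (64.5 CPM) and Sesn2 (32.2 CPM, 8 UMIs) in that library. Neutrophil markers summed to 56946 CPM in the same group, and macrophage markers to 19953 CPM. In the UBM library, RP2 was the second cluster for Trib3 at 7.73 CPM, and it was also next to RP1 at the low end for Hspa5, at 277 CPM.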
